A study of Mus musculus with 8 samples.

Results

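The matrix metalloproteinases (Mmp genes), their tissue inhibitors (Timp genes) and the ADAMTS proteases were followed in whole mouse liver after sham operation and during regeneration. The members were all rows of the gene table whose symbol begins with Mmp, Timp or Adamts and a digit, which took 46 of 34465 genes: 23 Mmp, 4 Timp and 19 Adamts. The choice rests on gene names and uses no measured value.

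The study sequenced liver RNA in 8 libraries, 2 in each of 4 groups. All mice carried floxed alleles of the gene for the platelet-derived growth factor receptor beta (b-PDGFR fl/fl, gene Pdgfrb), were of strain 129S4/SvJae/FVB and were 3 months old. They were negative or positive for Cre under the GFAP promoter (GFAP-Cre neg or pos), which the labels describe as deleting the receptor in hepatic stellate cells, and the operation was either a sham or a partial hepatectomy with liver collected at 72 h. The study asked what loss of this receptor does during hepatic regeneration. Floxed Cre-negative mice are the controls, so every animal carries the floxed alleles, and a GFAP-Cre control without them was not analysed here. The duplicates are not stated to be separate animals, so p-values measure only the spread between these samples, which may be technical.

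Matrix metalloproteinases are zinc enzymes that are made as inactive precursors and cut collagens, laminins and other matrix and cell-surface proteins once their propeptide is removed. TIMPs bind the active site of these enzymes, and TIMP3, which is held in the matrix, also inhibits ADAM and ADAMTS proteases. ADAMTS enzymes are secreted relatives with more selective substrates, such as procollagens, large proteoglycans and von Willebrand factor. In liver, stellate cells, myofibroblasts, endothelial cells and macrophages are known sources of these proteins, and matrix turnover accompanies regrowth of the organ.

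The sequences upstream of the transcription start are shown first, because they divide the Mmp family in a way that the levels below can be read beside. In the RefSeq annotation of GRCm38.p6, 10 Mmp genes lie next to each other on chromosome 9, in the order Mmp13, Mmp12, Mmp1b, Mmp3, Mmp1a, Mmp10, Mmp8, Mmp27, Mmp20 and Mmp7. RefSeq promoter sequences matched 32 of the 46 members, with 35 start sites. The 250 bases before each start were searched on both strands for the AP-1 motif (TGANTCA, the site of Fos and Jun factors), for the TATA box written as TATAAA, and for the GC box of Sp1-type factors written as GGGCGG, and no match of a motif overlapped a match of another. The 100 bases before the start follow for 5 cluster genes that hold an AP-1 motif and a TATA box, with those motifs in capitals.

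Mmp13, chr9:7272414-7272513, + strand: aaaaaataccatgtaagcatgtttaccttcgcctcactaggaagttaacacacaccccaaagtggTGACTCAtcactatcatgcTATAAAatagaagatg
Mmp3, chr9:7445722-7445821, + strand: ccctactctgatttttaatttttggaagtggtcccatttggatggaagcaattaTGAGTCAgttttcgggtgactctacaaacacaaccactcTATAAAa
Mmp1a, chr9:7464041-7464140, + strand: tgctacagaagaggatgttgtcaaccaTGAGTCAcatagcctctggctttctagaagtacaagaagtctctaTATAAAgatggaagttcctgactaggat
Mmp10, chr9:7502242-7502341, + strand: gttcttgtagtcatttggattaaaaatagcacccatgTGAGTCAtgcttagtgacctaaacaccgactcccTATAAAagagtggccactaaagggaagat
Mmp7, chr9:7691990-7692089, + strand: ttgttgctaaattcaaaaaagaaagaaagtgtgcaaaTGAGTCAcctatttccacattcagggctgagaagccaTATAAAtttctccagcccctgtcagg

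The same stretch follows for Mmp14, Timp1, Timp2 and Timp3, which lie on other chromosomes and whose values carry the results below. Capitals mark the GC box on either strand.

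Mmp14, chr14:54431498-54431597, + strand: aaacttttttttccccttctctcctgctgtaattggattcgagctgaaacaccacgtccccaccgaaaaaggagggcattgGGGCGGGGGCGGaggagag
Timp1, chrX:20870066-20870165, + strand: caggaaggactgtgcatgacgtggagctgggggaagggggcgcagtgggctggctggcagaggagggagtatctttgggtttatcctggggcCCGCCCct
Timp2, chr11:118355412-118355511, - strand: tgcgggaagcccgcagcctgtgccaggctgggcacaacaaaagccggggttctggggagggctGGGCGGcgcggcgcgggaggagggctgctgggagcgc
Timp3, chr10:86300312-86300411, + strand: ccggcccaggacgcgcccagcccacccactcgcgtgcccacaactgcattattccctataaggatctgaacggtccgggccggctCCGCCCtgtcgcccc

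An AP-1 motif was found in 8 of the 10 cluster genes, all but Mmp8 and Mmp27, and in 0 of the 22 other members with a sequence. Of all 32851 promoters of the same length, 6.75% held it, and of the 12 promoters of the cluster 66.7%. Mmp7 and Mmp12 have 2 start sites each and held it at 1 of them. TATAAA was found in 7 of the 10 cluster genes and in 2 of the 22 others (Adamts1 and Mmp21). By promoter it was in 58.3% of those of the cluster, against 12.4% of all promoters. The 7 cluster genes with TATAAA also held the AP-1 motif, a combination in 1.21% of all promoters. The GC box showed the opposite distribution, with 0 of the 10 cluster genes and 16 of the 22 others. By promoter it was in 69.6% of the 23 outside the cluster, against 32.7% of all promoters. The first base of the AP-1 motif lay 19 bases before that of the TATA box in Mmp13, 34 in Mmp10, 37 in Mmp20 and Mmp7, 39 in Mmp3, 44 in Mmp1b and 45 in Mmp1a. The median GC content of the searched sequence was 40.2% in the cluster, 63.6% in the other members and 52.4% over all promoters. Neighbouring Mmp genes are held to have arisen by duplication and are not independent of each other. A match is a description of letters and does not show that a factor binds there.

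**Figure D1:**
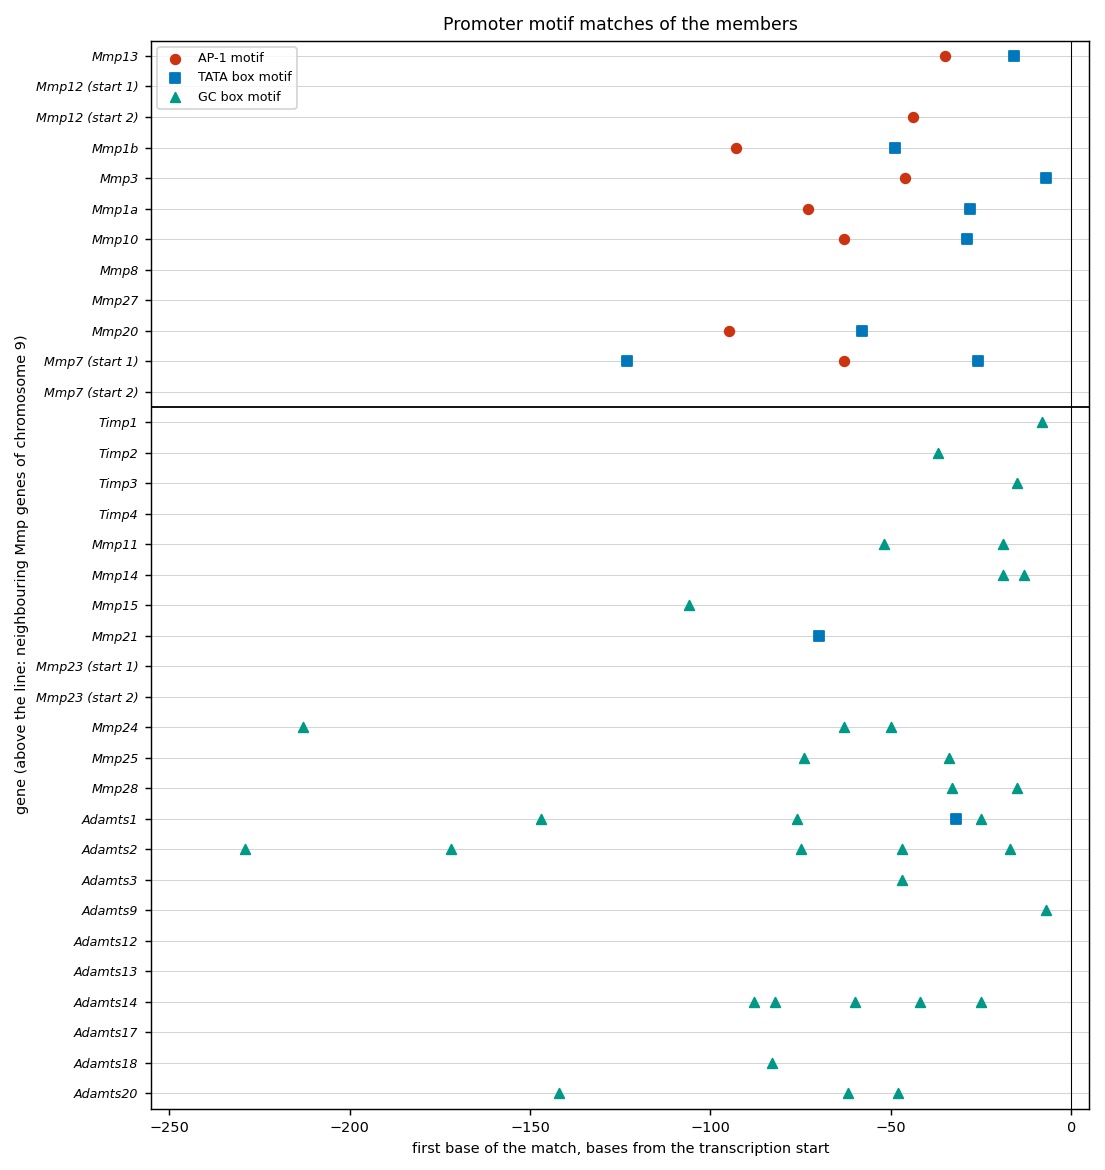
Position of each promoter motif match (horizontal axis, first base of the match in bases from the transcription start) for the members with a RefSeq promoter (rows), with the AP-1 motif as circles, the TATA box as squares and the GC box as triangles. Above the line are the neighbouring Mmp genes of chromosome 9, where 8 of 10 genes hold the AP-1 motif and 0 hold the GC box, and below it the other members, where 0 of 22 hold the AP-1 motif and 16 hold the GC box.

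Gene values were deposited as a normalized signal of unstated scaling, so levels are compared between libraries for the same gene and not between genes. Each library sums to between 8617664 and 11583777, depth in reads is unknown, and between 14881 and 17398 genes were at 1 or more. Albumin (Alb) was listed at 0 in 7 of 8 libraries although Apoa1 and Ttr, other hepatocyte genes, were abundant in all, so an exact 0 can be a failed estimate. Pdgfrb, the targeted gene, was at 49.8 and 63.3 in Cre-negative sham, 59.4 and 45.97 in Cre-positive sham, 122.6 and 70.5 in Cre-negative hepatectomy, and 63.1 and 99.9 in Cre-positive hepatectomy livers, and the genotypes overlapped in both conditions. This gene-level signal of whole liver separates neither the deleted part of the gene nor the stellate cells. Whole liver was sequenced, so fewer cells of a type and less RNA per cell cannot be told apart. Of the 46 members, 31 averaged a signal of 1 or more across the libraries and were tested: 14 Mmp, 3 Timp and 14 Adamts. Among the 15 others, Mmp1a, Mmp1b and Mmp20 were listed at 0 in all 8 libraries, 11 were at 0 in some (Mmp3, Mmp10, Mmp16, Mmp21, Mmp25, Timp4, Adamts8, Adamts16, Adamts18, Adamts19 and Adamts20), and Mmp24 was above 0 in all. The highest value among these 15 was 5.12, for Adamts19 in Cre-negative hepatectomy replicate 1.

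Hepatectomy was compared with sham over both genotypes, 4 libraries against 4. The inhibitor Timp3 was lower in every hepatectomy library than in every sham library, and the proteases Adamts12 and Mmp17 were higher in every one. No member passed an adjusted p of 0.05 in limma with Benjamini-Hochberg adjustment, where 4.49% of the 16443 genes tested did. At an unadjusted p under 0.05, 4 of the 31 members were counted (12.9%): Timp3, Adamts12, Adamts9 and Timp1. Over all genes that share was 23.8%, higher than among the members. Of the 31 members, 24 had a fold change above 0 and the log2 median was 0.42, where over all genes 57.7% were above 0 and the median was 0.12. Adamts17 is among the 24 and passed the filter only through Cre-negative hepatectomy replicate 1. Mmp13 is also among the 24 and passed the filter only through the Cre-negative hepatectomy group. The median of the members was 0.21 (21 of 30 above 0) without Cre-negative hepatectomy replicate 1, 0.18 (19 of 32, or 59.4%) without Cre-positive hepatectomy replicate 2, and 0.64 (28 of 32) without Cre-positive hepatectomy replicate 1. Over all genes the medians of these fits were, in the same order, 0.08 (55.3% above 0), 0.08 (56.4%) and 0.18 (59.4%). Scaling moved both figures: with median-of-ratios scaling 22 members were positive with a median of 0.29 (all genes -0.01), and with quantile normalization 19 were positive with a median of 0.18 (all genes -0.03). All fold changes are on log2(signal + 1), a scale on which changes of low genes come out too small.

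All 4 hepatectomy libraries lay above all 4 sham libraries for 2 members, against 11.2% of all genes tested, and below them for 1 member, against 6.2% of all genes. With median-of-ratios scaling Timp3 and Adamts12 remained without overlap, Mmp17 overlapped and Adamts2 did not. Without Cre-positive hepatectomy replicate 1, 6 members passed the adjusted threshold (Timp3, Adamts12, Adamts2, Mmp2, Mmp14 and Mmp23), while the share of all genes called went from 4.49% to 32.7%. With no intensity trend in the fit, Adamts12 alone passed, at an adjusted p of 0.0476 in limma and the same fold change.

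**Figure D2:**
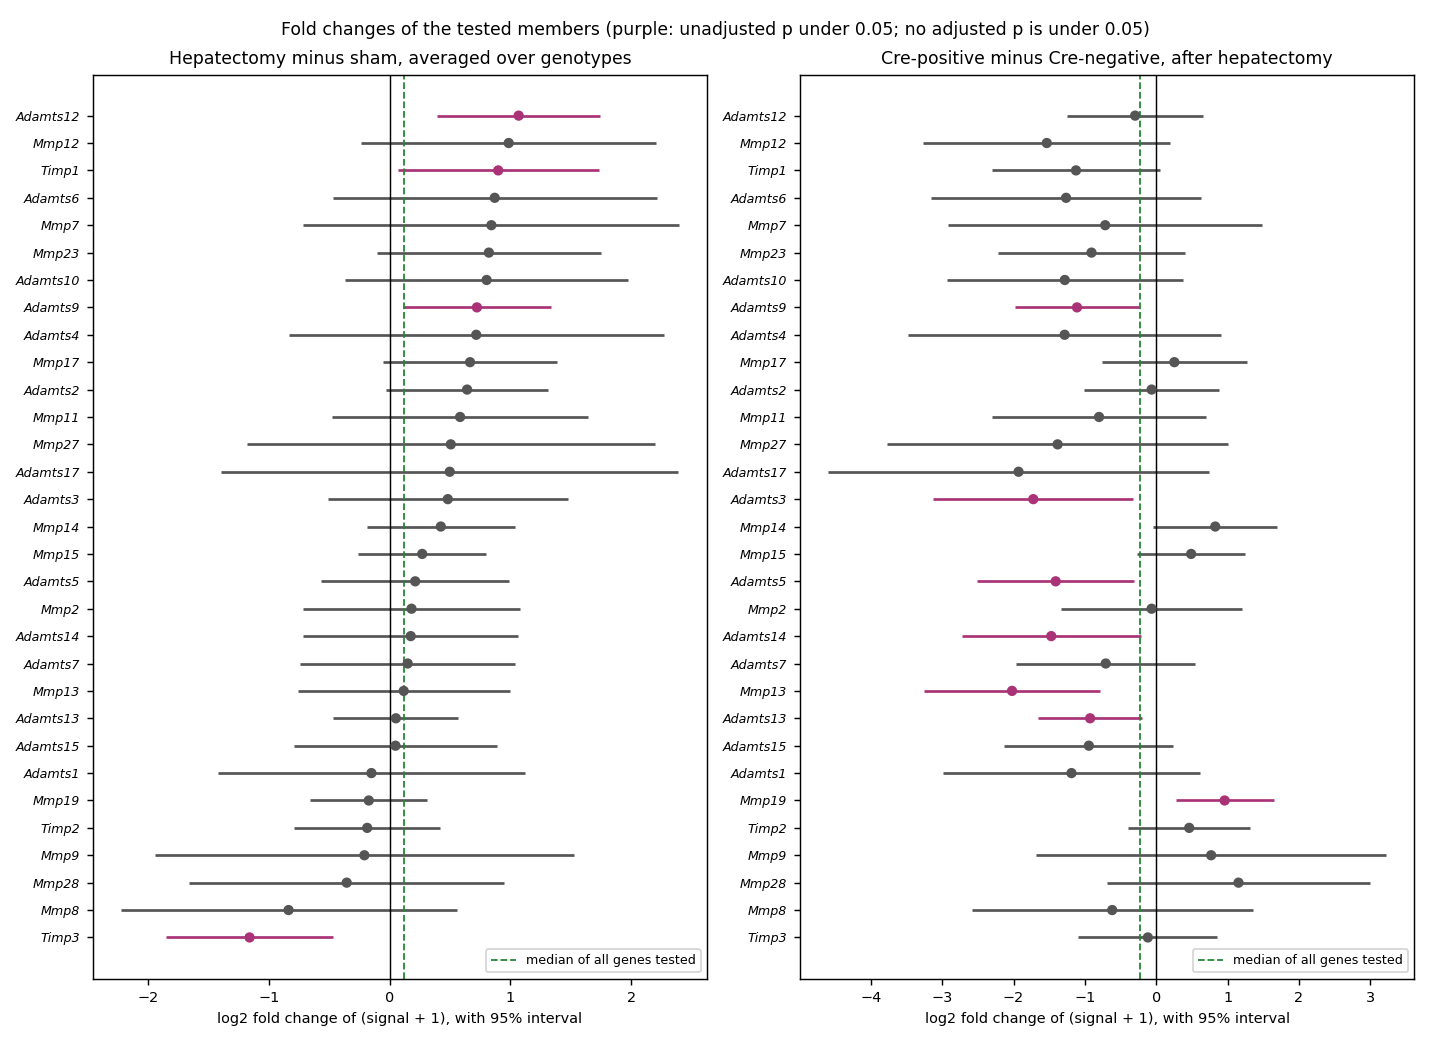
Fold change of each of the 31 tested members (rows) on the log2(signal + 1) scale with its 95% interval, for hepatectomy minus sham averaged over genotypes (left) and for Cre-positive minus Cre-negative after hepatectomy (right). Purple marks an unadjusted p under 0.05 and the dashed line the median of all genes tested. On the left Timp3 is lowest at -1.16 and 24 of 31 members are positive, and on the right 7 of 31 are positive.

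The inhibitors are described first. Timp3, the matrix-bound inhibitor, was at 114.6 and 112.3 in Cre-negative sham, 109.0 and 109.2 in Cre-positive sham, 75.9 and 34.6 in Cre-negative hepatectomy, and 59.4 and 37.5 in Cre-positive hepatectomy livers. The 4 sham values lie within a narrow band from 109.0 to 114.6, and the hepatectomy values are all lower, from 34.6 to 75.9. The log2 fold change was -1.16 (SE 0.29, 95% interval -1.85 to -0.47, limma adjusted p = 0.0777). Within genotypes it was -1.13 (SE 0.42, limma adjusted p = 0.19) in Cre-negative and -1.19 (SE 0.42, limma adjusted p = 0.284) in Cre-positive livers. The difference between these responses was -0.06 (SE 0.59, 95% interval -1.44 to 1.32, limma adjusted p = 0.979), an interval that reaches beyond a doubling in either direction. Over the 16 other settings the averaged value for Timp3 ran from -1.44 to -0.88 and its adjusted p in limma from 0.0213 to 0.266, the lowest without Cre-positive hepatectomy replicate 1.

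Timp1, the soluble inhibitor that is a known acute-phase and injury gene of liver, was at 41.6 and 44.6 in Cre-negative sham, 48.1 and 16.5 in Cre-positive sham, 110.1 and 87.1 in Cre-negative hepatectomy, and 36.3 and 54.3 in Cre-positive hepatectomy livers. Both Cre-negative hepatectomy libraries were above every sham library, and the Cre-positive hepatectomy libraries lay partly within the sham range. Its log2 fold change was 0.90 (SE 0.35, 95% interval 0.07 to 1.73, limma adjusted p = 0.187). In Cre-negative livers it was 1.17 (SE 0.50, limma adjusted p = 0.237) and in Cre-positive livers 0.63 (SE 0.50, limma adjusted p = 0.589). The Cre-positive value rests on 1 control, since it was -0.11 without Cre-positive sham replicate 2, whose Timp1 was 16.5. Timp2, which also takes part in activation of pro-MMP2 by MMP14, was at 73.2 and 69.2 in Cre-negative sham, 83.4 and 69.98 in Cre-positive sham, 58.9 and 51.3 in Cre-negative hepatectomy, and 54.03 and 107.0 in Cre-positive hepatectomy livers. Except for Cre-positive hepatectomy replicate 2, which is the highest of all 8, the hepatectomy values are below all sham values. The log2 fold change of Timp2 was -0.19 (SE 0.26, 95% interval -0.79 to 0.42, limma adjusted p = 0.668), and it turned to 0.06 without Cre-positive hepatectomy replicate 1. Timp4 was not tested, with 0, 0, 0.394 and 0.179 in the sham and 2.65, 0.86, 0.0319 and 0 in the hepatectomy libraries.

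Ratios within a library do not depend on its scaling. They were chosen after the values were seen and are given without a test. Timp1 to Timp3 was 0.363, 0.397, 0.441 and 0.151 in the sham and 1.45, 2.52, 0.61 and 1.45 in the hepatectomy libraries, so that every hepatectomy library was above every sham library. Timp2 to Timp3 was 0.638, 0.616, 0.765 and 0.641 in the sham and 0.776, 1.48, 0.909 and 2.86 in the hepatectomy libraries, again without overlap. Mmp14 to Timp3 was 0.854, 0.945, 1.07 and 0.805 in the sham and 1.18, 3.39, 2.21 and 6.77 in the hepatectomy libraries, also without overlap. The ratios without overlap all divide by Timp3, so they are not results separate from its lower values. Mmp14 to Timp2 (1.34, 1.54, 1.40 and 1.26 in the sham and 1.52, 2.29, 2.43 and 2.37 in the hepatectomy libraries) and Mmp2 to Timp2 (0.224, 0.26, 0.301 and 0.36 in the sham and 0.41, 0.476, 0.227 and 0.403 in the hepatectomy libraries) overlapped between sham and hepatectomy. Since the deposited signal may or may not be per length, these ratios are compared between libraries and not with 1.

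**Figure D3:**
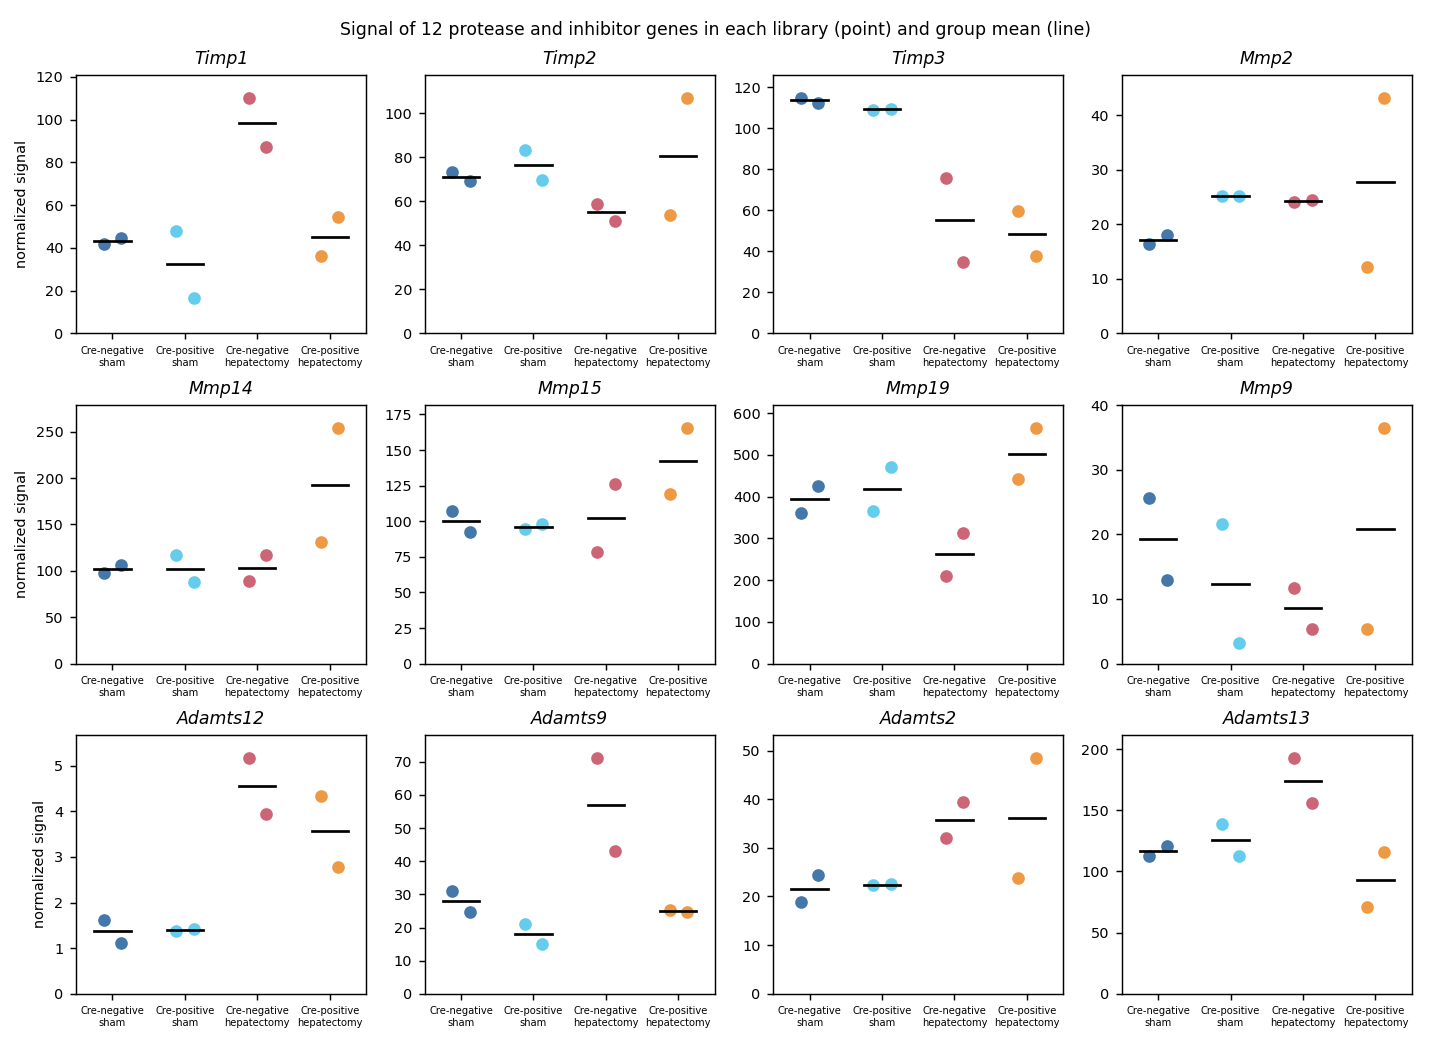
Normalized signal (vertical axes, each from 0) of 12 members in the 4 groups, with a point for each library and a line for the mean of the 2 libraries of a group. Timp3 is below the sham values in all 4 hepatectomy libraries, Adamts12 above them in all 4, and the 2 hepatectomy libraries of a genotype differ widely for Mmp9, Mmp14 and Adamts9.

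The gelatinases cut denatured collagen and basement membrane collagen. Mmp2, typical of stellate cells and fibroblasts, was at 16.4 and 17.98 in Cre-negative sham, 25.1 and 25.2 in Cre-positive sham, 24.2 and 24.4 in Cre-negative hepatectomy, and 12.2 and 43.1 in Cre-positive hepatectomy livers. The 2 Cre-positive hepatectomy libraries are the lowest and the highest of all 8, and in sham livers both Cre-positive values were above both Cre-negative ones. Mmp9, which is abundant in neutrophils and macrophages, was at 25.7 and 12.9 in Cre-negative sham, 21.5 and 3.13 in Cre-positive sham, 11.7 and 5.42 in Cre-negative hepatectomy, and 5.34 and 36.4 in Cre-positive hepatectomy livers. Its sham and hepatectomy values overlapped. Summed neutrophil markers were 605.5, 396.1, 476.1 and 104.1 in the sham and 422.5, 225.3, 439.5 and 342.7 in the hepatectomy libraries, with Ly6g, Camp and Mpo at 0 in some libraries, and Cre-positive sham replicate 2 was the lowest for this sum and for Mmp9. These sums are nearly all S100a8 and S100a9. The other 6 markers summed to 6.01, 3.24, 7.16 and 7.13 in the sham and 31.5, 31.2, 10.1 and 51.2 in the hepatectomy libraries, higher in every hepatectomy library, and 5 of the 7 tested markers had a fold change above 0 with a log2 median of 1.13, none of them called in limma. Mmp8, the neutrophil collagenase, was at 28.99 and 17.98 in Cre-negative sham, 26.1 and 5.25 in Cre-positive sham, 19.4 and 6.31 in Cre-negative hepatectomy, and 11.3 and 4.14 in Cre-positive hepatectomy livers, with a log2 fold change of -0.84 (SE 0.59, limma adjusted p = 0.403). Its 2 lowest values were in Cre-positive hepatectomy replicate 2 and Cre-positive sham replicate 2. The part of the neutrophil markers in these values was not tested.

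Among the membrane-type enzymes, which are anchored at the cell surface, Mmp14 (MT1-MMP, an activator of pro-MMP2) was at 97.9 and 106.2 in Cre-negative sham, 117.1 and 87.9 in Cre-positive sham, 89.4 and 117.3 in Cre-negative hepatectomy, and 131.1 and 253.8 in Cre-positive hepatectomy livers. Cre-positive hepatectomy replicate 2 was the highest library by far, and both Cre-positive hepatectomy values exceeded all sham values. Its log2 fold change was 0.42 (SE 0.26, limma adjusted p = 0.345) over both genotypes and 0.84 (SE 0.37, limma adjusted p = 0.382) in Cre-positive livers. Without Cre-positive hepatectomy replicate 1 the Cre-positive value was 1.31 with a limma adjusted p of 0.0258, in a fit where 21.2% of all genes were called, and it then rests on 1 library. Without replicate 2 of that group the value of Mmp14 was 0.37. Mmp15, another membrane-type enzyme, was at 107.2 and 92.6 in Cre-negative sham, 94.3 and 98.03 in Cre-positive sham, 78.5 and 126.2 in Cre-negative hepatectomy, and 118.9 and 165.3 in Cre-positive hepatectomy livers, with a log2 fold change of 0.27 (SE 0.23, limma adjusted p = 0.474). Mmp17, attached by a glycolipid anchor, was at 2.34 and 3.49 in Cre-negative sham, 4.29 and 2.24 in Cre-positive sham, 5.14 and 4.50 in Cre-negative hepatectomy, and 4.95 and 7.07 in Cre-positive hepatectomy livers. Its hepatectomy values, from 4.50 to 7.07, were all above the sham values, which reached 4.29. The ranges overlapped with median-of-ratios scaling, and the log2 fold change was 0.67 (SE 0.31, limma adjusted p = 0.235). Mmp16, Mmp24 and Mmp25 were not tested, and their highest values were 1.98, 4.99 and 1.53.

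GC content is given beside these values, because 3 of the 4 hepatectomy libraries moved with it. Relative to the sham mean, the median log2 value in Cre-positive hepatectomy replicate 2 was -1.16 over 2434 genes with under 45% GC, 0.17 over 6922 genes with 45% to 55%, and 0.67 over 3570 genes with 55% or more. Over the same classes the medians were -0.02, 0.13 and 0.60 in Cre-negative hepatectomy replicate 1, -0.04, 0.07 and 0.36 in Cre-negative hepatectomy replicate 2, and 0, -0.04 and -0.12 in Cre-positive hepatectomy replicate 1. Of the 31 tested members, 6, 13 and 12 fall in these classes. Mmp8 (43.4%), Mmp13 (41.7%) and Mmp12 (43.2%) are in the lowest class and Mmp14 (55.3%), Mmp15 (59.6%) and Mmp17 (55.9%) in the highest. Timp3 (52.5%) and Adamts12 (46.8%) are in the middle class. Across the 31 tested members, Spearman's rho between GC content and the log2 difference from sham in Cre-positive hepatectomy replicate 2 was 0.45, a description over genes that share a library. The part of GC content in the members' values was not tested.

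Of the 8 chromosome 9 genes with an AP-1 motif, 5 averaged under 1 and were not tested. Mmp1a, Mmp1b and Mmp20 were listed at 0 throughout, Mmp10 did not exceed 0.138 and Mmp3 did not exceed 3.05. Mmp13, the main interstitial collagenase of rodents, was at 2.11 and 0.86 in Cre-negative sham, 1.44 and 0.155 in Cre-positive sham, 4.08 and 2.79 in Cre-negative hepatectomy, and 0.169 and 0 in Cre-positive hepatectomy livers. Both Cre-negative hepatectomy values were above every sham value of the same genotype, and both Cre-positive hepatectomy values were close to 0 or listed at 0. Mmp12, the macrophage elastase, was at 2.13 and 10.3 in Cre-negative sham, 2.69 and 1.52 in Cre-positive sham, 23.4 and 7.43 in Cre-negative hepatectomy, and 3.74 and 4.18 in Cre-positive hepatectomy livers, with a log2 fold change of 0.99 (SE 0.52, limma adjusted p = 0.286). The values of Mmp12 were highest in Cre-negative hepatectomy replicate 1 and ranged widely in both conditions. Mmp7 (matrilysin) ranged from 0.585 to 9.97 in sham and from 2.00 to 8.47 in hepatectomy livers. Mmp27 ranged from 1.93 to 6.28 in sham and from 0.902 to 24.8 in hepatectomy livers, and Mmp8 is given above. Summed macrophage markers were 1177, 1953, 1829 and 1682 in the sham and 2008, 1504, 3512 and 3570 in the hepatectomy libraries, with no marker at 0, and their part in Mmp12 was not tested.

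Other matrix metalloproteinases showed no common direction. Mmp19, a secreted enzyme with broad substrates, was at 361.7 and 424.5 in Cre-negative sham, 366.0 and 470.6 in Cre-positive sham, 209.0 and 314.0 in Cre-negative hepatectomy, and 441.7 and 563.7 in Cre-positive hepatectomy livers. Its values were lower than sham in both Cre-negative hepatectomy libraries and within or above the sham range in the Cre-positive ones, and its log2 fold change averaged over genotypes was -0.17 (SE 0.21, limma adjusted p = 0.618). Mmp23, which lacks the usual propeptide switch, was at 4.69 and 4.72 in Cre-negative sham, 5.44 and 4.25 in Cre-positive sham, 10.8 and 15.5 in Cre-negative hepatectomy, and 3.28 and 11.9 in Cre-positive hepatectomy livers. Its hepatectomy libraries were above all sham libraries except for Cre-positive hepatectomy replicate 1, which was below them, with a log2 fold change of 0.82 (SE 0.39, limma adjusted p = 0.25). Mmp28, known as epilysin, was at 1.95 and 2.66 in Cre-negative sham, 2.44 and 2.79 in Cre-positive sham, 0 and 2.26 in Cre-negative hepatectomy, and 1.02 and 6.98 in Cre-positive hepatectomy livers, and it was listed at 0 in 1 hepatectomy library and highest in another. Mmp11 ranged from 0.763 to 3.58 in sham and from 1.503 to 7.63 in hepatectomy livers.

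Among ADAMTS genes, the procollagen N-proteinases remove the amino-terminal propeptide of fibrillar collagens. Adamts2, the main enzyme of this kind, was at 18.9 and 24.4 in Cre-negative sham, 22.3 and 22.6 in Cre-positive sham, 32.1 and 39.4 in Cre-negative hepatectomy, and 23.8 and 48.4 in Cre-positive hepatectomy livers. The other hepatectomy libraries were above all sham libraries, while Cre-positive hepatectomy replicate 1 was within the sham range. The log2 fold change of Adamts2 was 0.64 (SE 0.29, 95% interval -0.03 to 1.31, limma adjusted p = 0.224). Adamts14 was at 26.6 and 30.9 in Cre-negative sham, 24.2 and 24.5 in Cre-positive sham, 87.7 and 28.98 in Cre-negative hepatectomy, and 13.5 and 22.8 in Cre-positive hepatectomy livers, where 1 Cre-negative hepatectomy library stands apart at 87.7. Adamts3 ranged from 3.08 to 4.33 in sham and from 1.03 to 15.1 in hepatectomy livers. Their substrate genes Col1a1 and Col3a1 were higher in the hepatectomy groups, with values given below.

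Adamts12, which cleaves cartilage oligomeric matrix protein, was at 1.63 and 1.11 in Cre-negative sham, 1.38 and 1.42 in Cre-positive sham, 5.16 and 3.94 in Cre-negative hepatectomy, and 4.34 and 2.78 in Cre-positive hepatectomy livers. Every hepatectomy value, from 2.78 to 5.16, was above every sham value, from 1.11 to 1.63. The log2 fold change was 1.07 (SE 0.29, 95% interval 0.40 to 1.74, limma adjusted p = 0.0889), with 1.23 (SE 0.41, limma adjusted p = 0.162) in Cre-negative and 0.91 (SE 0.41, limma adjusted p = 0.389) in Cre-positive livers. Over 15 other settings it ran from 0.50 to 1.47 with an adjusted p in limma from 0.0417, without Cre-positive hepatectomy replicate 1, to 0.293. Adamts12 was left out by the filter on a mean of at least 5, and such low signals carry an unknown counting error. Its relative Adamts7 was at 94.9 and 69.1 in Cre-negative sham, 51.4 and 47.2 in Cre-positive sham, 97.7 and 82.9 in Cre-negative hepatectomy, and 29.6 and 100.6 in Cre-positive hepatectomy livers, and its sham and hepatectomy values overlapped.

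The proteoglycan-cleaving members act on aggrecan and versican. Adamts9 was at 31.2 and 24.7 in Cre-negative sham, 21.2 and 14.97 in Cre-positive sham, 71.01 and 43.2 in Cre-negative hepatectomy, and 25.4 and 24.8 in Cre-positive hepatectomy livers. Both Cre-negative hepatectomy libraries were above all sham libraries. Both Cre-positive ones were above both Cre-positive sham libraries and within the range of all sham libraries. The log2 fold change was 0.72 (SE 0.26, 95% interval 0.11 to 1.33, limma adjusted p = 0.161). Within genotypes it was 0.97 (SE 0.37, limma adjusted p = 0.199) in Cre-negative and 0.47 (SE 0.37, limma adjusted p = 0.582) in Cre-positive livers. Adamts1 was at 89.7 and 48.03 in Cre-negative sham, 46.6 and 36.9 in Cre-positive sham, 175.0 and 28.7 in Cre-negative hepatectomy, and 33.5 and 28.3 in Cre-positive hepatectomy livers, where 1 Cre-negative hepatectomy library was highest and the other 3 hepatectomy libraries were the 3 lowest. Adamts5 was at 2.49 and 4.24 in Cre-negative sham, 4.13 and 2.36 in Cre-positive sham, 8.96 and 5.35 in Cre-negative hepatectomy, and 2.51 and 1.55 in Cre-positive hepatectomy livers, and Adamts15 at 5.01, 10.7, 3.84 and 3.85 in the sham and 8.71, 7.60, 2.33 and 5.76 in the hepatectomy libraries. Adamts4 ranged from 0.552 to 9.77 in sham and from 1.74 to 19.2 in hepatectomy livers.

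Adamts13, the enzyme that trims von Willebrand factor and is made by hepatic stellate cells, was at 112.9 and 120.5 in Cre-negative sham, 138.7 and 112.8 in Cre-positive sham, 192.4 and 155.6 in Cre-negative hepatectomy, and 70.8 and 115.6 in Cre-positive hepatectomy livers. Cre-negative hepatectomy values were above all sham values, and the Cre-positive ones were below or within the sham range. Adamts10, which binds fibrillin microfibrils, was at 36.6 and 59.9 in Cre-negative sham, 55.5 and 47.9 in Cre-positive sham, 262.3 and 69.7 in Cre-negative hepatectomy, and 32.6 and 92.7 in Cre-positive hepatectomy livers, with a log2 fold change of 0.80 (SE 0.50, limma adjusted p = 0.348). A single library at 262.3 sets most of the Cre-negative mean of Adamts10. Adamts6, a close relative, was at 3.59 and 8.07 in Cre-negative sham, 4.76 and 0.582 in Cre-positive sham, 20.8 and 6.17 in Cre-negative hepatectomy, and 5.94 and 2.90 in Cre-positive hepatectomy livers. Adamts17 was tested although its sham mean was under 1, because Cre-negative hepatectomy replicate 1 was at 14.5, and it was listed at 0 in the other library of that group.

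The highest values of many ADAMTS genes were found in 1 library. Cre-negative hepatectomy replicate 1 held the highest value for 15 of the 31 tested members (48.4%), and 11 of these were among the 14 tested Adamts genes. Among the 11 is Adamts17, which passed the filter on mean signal through this library alone. Its place in this count therefore follows from the filter. Over all genes tested, the same library was highest for 32.3%. Cre-positive hepatectomy replicate 2 was highest for 10 members (32.3%), against 24.6% of all genes, and Cre-positive hepatectomy replicate 1 for 0 members, against 9.89% of all genes. Cre-negative hepatectomy replicate 1 also had the lowest summed signal and the most genes at 1 or more. It was the only library with a value for Alb (227226), which was listed at 0 in all others. The part of these library differences in the members' values was not tested.

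**Figure D4:**
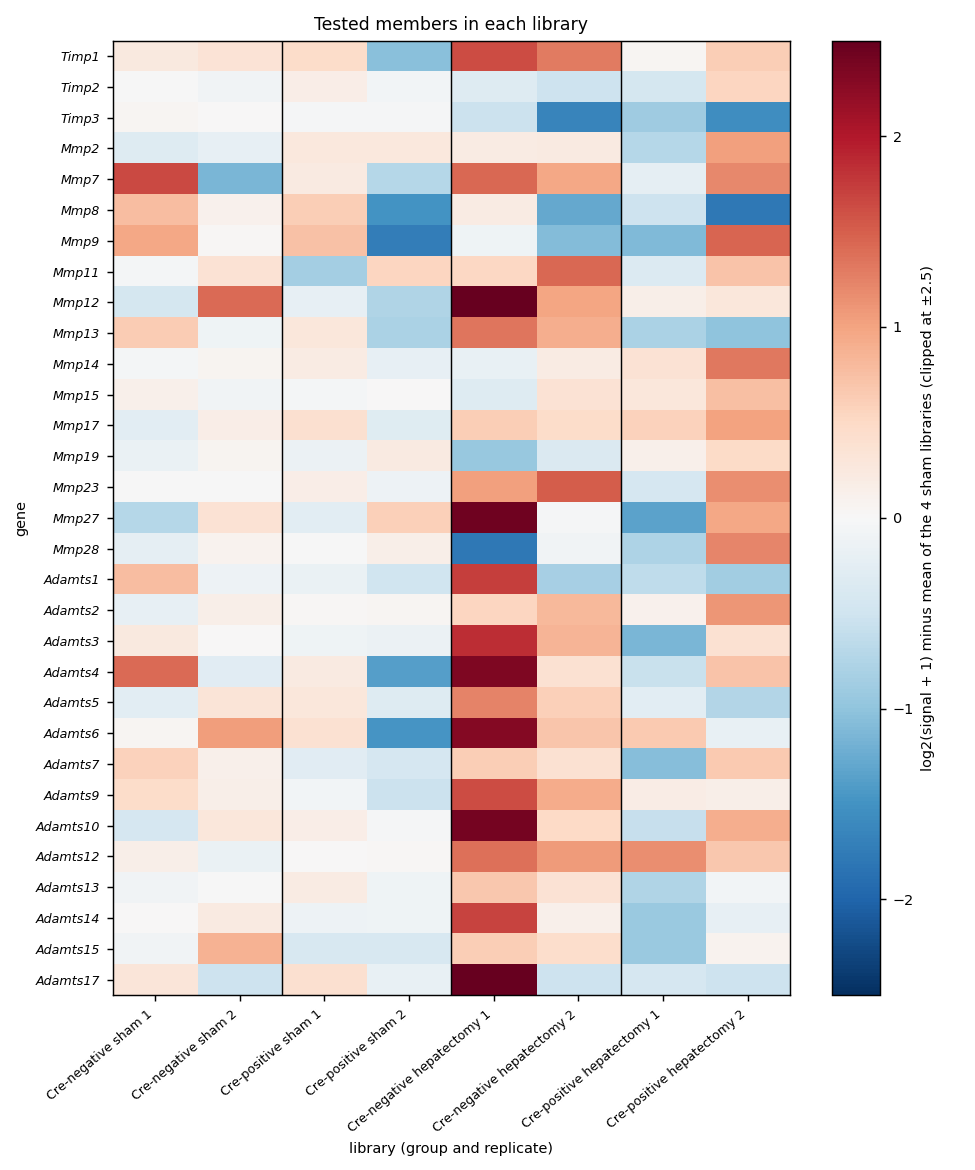
Each tested member (rows) in each of the 8 libraries (columns) as log2(signal + 1) minus the mean of the 4 sham libraries, red for higher and blue for lower, with colours clipped at 2.5. Cre-negative hepatectomy replicate 1 is highest for 15 of the 31 members, most of them Adamts genes, and Timp3 is the gene that is below sham in all 4 hepatectomy libraries without overlap. Adamts17, one of the 15, passed the filter on mean signal through that replicate 1 alone.

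The response to hepatectomy was also taken within each genotype, 2 libraries against 2, with the same controls as in the averaged comparison. In Cre-negative livers no member passed the adjusted threshold in limma, where 1.11% of genes did, and 3 members had an unadjusted p under 0.05 (Adamts12, Timp3 and Adamts9) against 21.3% of genes. Both hepatectomy libraries were above both sham libraries for 13 members (39.7% of all genes) and below them for 4 members, namely Timp3, Timp2, Mmp19 and Mmp9 (23.3% of all genes). In Cre-positive livers no member passed, where 0.943% of genes did, and Timp3 was the 1 member with an unadjusted p under 0.05, against 13.5% of genes. There, 7 members lay above (23.9% of all genes) and 4 below, namely Adamts1, Adamts14, Adamts17 and Timp3 (19.5% of all genes). Adamts17 was under 1 in all of these libraries, at 0.89 and 0.25 in sham and 0.066 and 0 in hepatectomy livers. Positive fold changes were seen for 24 of 31 members in Cre-negative and 18 of 31 in Cre-positive livers, against 61.0% and 51.6% of all genes. Adamts17, tested only through Cre-negative hepatectomy replicate 1, is among the 24 and, in Cre-positive livers, among the 4 below. Mmp13, which passed the filter only through the Cre-negative hepatectomy group, is among the 24 and among the 13.

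Genotype was compared in sham livers first. No member passed the adjusted threshold in limma, where 0.00608% of genes did (1 gene), and 0 members had an unadjusted p under 0.05 against 0.888% of genes. Both Cre-positive libraries were above both Cre-negative ones for Mmp2 alone (12.1% of all genes) and below them for 7 members (19.4% of all genes). The members with the smallest p were Adamts9 at -0.61 (SE 0.37, limma adjusted p = 1), Adamts15 at -0.79 (SE 0.51, limma adjusted p = 1) and Adamts6 at -1.10 (SE 0.81, limma adjusted p = 1), all lower in Cre-positive livers on the log2 scale. In sham livers the genotypes overlapped for Timp1, Timp2 and Mmp14, and both Cre-positive values of Timp3 were slightly below both Cre-negative ones.

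After hepatectomy, most members had lower values in Cre-positive than in Cre-negative livers, without a call. In limma 0 members passed the adjusted threshold, where 0.0182% of genes did (3 genes), and 7 of 31 had an unadjusted p under 0.05 (22.6%) against 18.3% of genes. Only 7 of the 31 members were above 0, and the log2 median was -0.91, where 37.0% of all genes were above 0 with a median of -0.23. The median of the members was -0.32 (10 of 30 above 0) without Cre-negative hepatectomy replicate 1 and -0.49 (10 of 32) without Cre-positive hepatectomy replicate 1. Over all genes the medians of these fits were -0.18 (38.1% above 0) and -0.12 (44.3%). With median-of-ratios scaling 10 were positive with a median of -0.79, and with quantile normalization 12 were positive with a median of -0.16, where the median of all genes was -0.12 and 0.03. Both Cre-positive libraries lay above both Cre-negative ones for Mmp14 and Mmp19 (14.2% of all genes) and below them for 10 members (26.3% of all genes). Mmp13 is among these 10 and among the 7 with an unadjusted p under 0.05. It passed the filter only through the Cre-negative hepatectomy group.

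The members with the smallest p in that comparison were Mmp13, Mmp19 and Adamts9. Mmp13 had a log2 difference of -2.02 (SE 0.53, limma adjusted p = 0.149), with a value listed at 0 in 1 of the Cre-positive libraries. Mmp19 was higher in Cre-positive livers by 0.96 (SE 0.29, limma adjusted p = 0.185) on the log2 scale, and Adamts9 differed by -1.11 (SE 0.37, limma adjusted p = 0.207). The other 4 with an unadjusted p under 0.05 were Adamts3, Adamts5, Adamts13 and Adamts14, all lower in Cre-positive livers. Mmp14 differed by 0.83 (SE 0.37, limma adjusted p = 0.288). Without Cre-positive hepatectomy replicate 1 it was 1.30 with a limma adjusted p of 0.0364, in a fit that called 13.4% of all genes.

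Whether Cre status altered the response to hepatectomy was tested as the difference between the 2 responses. In limma 0 members passed, where 0.0122% of genes did (2 genes), and 0 members had an unadjusted p under 0.05 against 8.09% of genes. The smallest p-values were those of Adamts13 at -1.03 (SE 0.44, 95% interval -2.06 to 0.01, limma adjusted p = 0.619), Mmp19 at 0.88 (SE 0.41, 95% interval -0.09 to 1.85, limma adjusted p = 0.649) and Adamts5 at -1.37 (SE 0.66, 95% interval -2.92 to 0.19, limma adjusted p = 0.654). For Mmp14 the difference was 0.83 (SE 0.52, 95% interval -0.39 to 2.06, limma adjusted p = 0.705). Of the 31 members 8 were positive with a median of -0.32, against -0.20 over all genes. Quantile normalization turned this to 17 positive with a median of 0.21, so no direction of the family is given for the difference.

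Isoform values were deposited beside the gene values, with 140 isoforms for the 46 members. Timp3 was carried by 1 isoform, Timp3-001, whose share was 96.8% or more in every library. The lower signal after hepatectomy is therefore that of this isoform. Adamts12 had all of its signal in Adamts12-201, and Mmp14 and Mmp19 have 1 isoform each. Timp1-001 held 52.7%, 86.8%, 39.99% and 89.1% in the sham and 68.4%, 44.8%, 68.4% and 76.4% in the hepatectomy libraries, with shares that vary as much between duplicates as between groups. Adamts9-201 held 16.3%, 65.05%, 31.8% and 51.03% in the sham and 92.6%, 56.1%, 10.7% and 38.4% in the hepatectomy libraries, again with wide differences between duplicates. Mmp15-001 held 54.2%, 60.9%, 65.98% and 68.8% in the sham and 98.98%, 89.3%, 58.8% and 69.6% in the hepatectomy libraries, highest in the Cre-negative hepatectomy libraries. No test was run on isoform shares, and the split of reads between isoforms is an estimate of the authors' software.

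Several members overlap another gene, and strand handling of the libraries is not given, so reads from both cannot be told apart. The GENCODE M21 annotation was used here for GC content and for which genes overlap. In it, 22 of 46 members overlap another gene, and 16 overlap a gene of the opposite strand that is in the table. Timp1, Timp3 and Timp4 lie inside the synapsin genes Syn1, Syn3 and Syn2. Syn3 was at 4.01, 5.08, 3.25 and 5.63 in the sham and 11.2, 4.76, 3.51 and 5.51 in the hepatectomy libraries, and Syn1 at 1.34, 2.90, 3.91 and 1.23 in the sham and 9.06, 5.78, 3.01 and 6.67 in the hepatectomy libraries. Syn3 was not lower after hepatectomy, where its range overlapped that of the sham livers. Mmp19 overlaps Tmem198b (14.2 to 81.5) and Adamts7 overlaps Tbc1d2b (99.2 to 294.8), so values of these members are uncertain.

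Genes that activate, inhibit or are cut by these proteases were compared in the averaged hepatectomy contrast. Of 14 matrix substrates tested (16 listed), 4 passed limma's adjusted threshold, all higher after hepatectomy, and 12 were positive with a median of 0.72 on the log2 scale. Col1a1, the main chain of fibrillar type I collagen, was at 68.8 and 61.6 in Cre-negative sham, 89.6 and 247.7 in Cre-positive sham, 316.8 and 357.7 in Cre-negative hepatectomy, and 481.7 and 1051 in Cre-positive hepatectomy livers and rose by 2.30 (SE 0.38, limma adjusted p = 0.022) on the log2 scale. Col3a1, type III collagen, rose by 1.14 (SE 0.22, limma adjusted p = 0.0347). The basement membrane collagens Col4a1 and Col4a2, substrates of the gelatinases, rose by 0.94 (SE 0.19, limma adjusted p = 0.0412) and 0.97 (SE 0.20, limma adjusted p = 0.0446). These calls depend on the setting: of 16 alternatives, 7 ended the call of Col1a1 and 11 ended each of the other 3, among them leaving out any of several single libraries (Col1a1 without Cre-negative sham replicate 1 had an adjusted p of 0.1003 in limma, and Col4a2 without the same library 0.208).

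No gene of the other lists passed in the averaged contrast. Of 9 genes of the plasminogen system, which activates several MMPs, 4 were positive with a median of -0.01. Plg, plasminogen itself, was at 38198, 43327, 44115 and 43327 in the sham and 14989, 28910, 44644 and 40414 in the hepatectomy libraries. Of 5 proprotein convertases and activators, 3 were positive with a median of 0.08, and Furin, which removes the propeptide of membrane-type enzymes, was at 2072, 2243, 1561 and 1884 in the sham and 1057, 1546, 2358 and 2261 in the hepatectomy libraries. Bsg, known as a metalloproteinase inducer, was at 3216, 3715, 3439 and 3488 in the sham and 3742, 4674, 4694 and 6916 in the hepatectomy libraries, higher after hepatectomy in all 4 libraries, with a log2 fold change of 0.50 (SE 0.19, limma adjusted p = 0.177). Of 6 tested inhibitors and clearance genes, 1 was positive with a median of -0.33. Lrp1, the receptor that clears several proteases and TIMP complexes, was at 9401, 10901, 11848 and 8900 in the sham and 5904, 8028, 11106 and 12882 in the hepatectomy libraries.

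Of 10 tested ADAM and astacin proteases, 7 were positive with a median of 0.40, and of 7 ADAMTS-like proteins, which resemble ADAMTS enzymes without the protease domain, 4 were positive with a median of 0.21. Bmp1, the procollagen C-proteinase that works beside Adamts2, was at 1302, 1351, 1457 and 1385 in the sham and 1817, 1340, 1332 and 1572 in the hepatectomy libraries. Of 5 cathepsins and heparanase, 3 were positive with a median of 0.08. Ctsl, the lysosomal cathepsin L, was at 8985, 9855, 8108 and 7740 in the sham and 4851, 6729, 4731 and 3377 in the hepatectomy libraries, lower in all 4 hepatectomy libraries, with a log2 fold change of -0.85 (SE 0.19, limma adjusted p = 0.0567). In the other 5 contrasts no gene of these lists passed.

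Markers of the cells that can make the members differed between sham and hepatectomy livers, and their part in the members' values was not tested. The summed stellate cell markers (10 genes, none at 0) were 4197, 4662, 4778 and 3604 in the sham and 2589, 2540, 2571 and 2306 in the hepatectomy libraries, lower in all hepatectomy libraries. Ecm1, Dcn and Reln hold most of this signal, and of the 10 genes 3 had a fold change above 0, with a log2 median of -0.58. The next most abundant, Colec11 and Rgs5, overlapped between sham and hepatectomy livers. Colec11 ranged from 185.9 to 287.1 in sham and from 125.7 to 228.1 in hepatectomy livers. Rgs5 ranged from 123.5 to 178.6 in sham and from 35.6 to 158.8 in hepatectomy livers. The lower sum is therefore mainly that of the most abundant genes. The summed myofibroblast and portal fibroblast markers (8 genes, none at 0) were 852.8, 836.3, 804.6 and 1247 in the sham and 1472, 1834, 2502 and 3332 in the hepatectomy libraries. Col1a1 and Col3a1, which are also in the substrate list, hold most of this signal. The other 6 genes summed to 249.4, 187.7, 185.8 and 204.1 in the sham and 428.6, 331.9, 164.2 and 274.3 in the hepatectomy libraries, where Cre-positive hepatectomy replicate 1 was below all sham libraries and the other 3 hepatectomy libraries were above them. Sinusoidal endothelial markers (8 genes, none at 0) summed to 3572, 4614, 4656 and 3676 in the sham and 3394, 1635, 2729 and 3665 in the hepatectomy libraries, and 2 of them, Oit3 and Kdr, passed the adjusted threshold in limma as lower. Mesothelial markers without Krt8, a keratin that hepatocytes also express and that holds most of that list's signal (4 genes, none at 0), summed to 108.1, 198.2, 129.0 and 137.5 in the sham and 169.4, 343.0, 54.5 and 108.7 in the hepatectomy libraries. Cholangiocyte markers without Spp1, which holds most of theirs (5 genes, Cftr at 0 in some), summed to 90.1, 47.1, 30.6 and 37.2 in the sham and 179.1, 120.2, 37.4 and 62.8 in the hepatectomy libraries. Both sums overlapped between sham and hepatectomy livers. Of 5 pancreatic acinar markers, Prss2 and Pnlip were at 0 in all libraries, and Cpa1 and Amy2a5 were at 0 in some. Cela2a was above 0 in every library, at 24.6, 32.6, 15.2 and 15.7 in the sham and 45.1, 18.8, 6.55 and 22.6 in the hepatectomy libraries.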

How the data were processed

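RNA from whole liver was sequenced in 8 libraries by the authors, prepared with the TruSeq kit per the labels' protocols. The deposited tables hold a normalized signal for genes and for isoforms, made by the authors. The submitters' processing notes name TopHat, Cufflinks and the builds mm9 and NCBIM37, with no versions. How the signal was normalized is not given. It is not a count, whole reads could not be recovered, and the depth and its precision are therefore unknown. Samples were grouped from their titles, replicate numbers follow accession order, and 0 columns belonged to another series.

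Tests used limma 3.58.1 (R 4.3.3) on values of log2(signal + 1) with a mean for each of 4 groups, an intensity trend, a filter on a mean signal of at least 1 (16443 of 34465 genes), two-sided p-values and Benjamini-Hochberg adjustment over all genes tested at a threshold of 0.05. The fit had 4 residual degrees of freedom and 3.25 prior ones. The scripts were tested on simulated data. Alternatives were other pseudocounts (0.1 and 5), no filter, a mean of at least 5, median-of-ratios scaling, quantile normalization, no trend, array weights, only the groups compared, and each library left out.

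Genes named with every library's value were members past the threshold, the 12 with the highest mean, those with the smallest p in each contrast and a fixed set (the Timp genes, Mmp2, Mmp9, Mmp14, Adamts1 and Adamts13). Any other tested member is given by its range or by single values. Other members that were not tested are listed by name, some of them with their highest value. In lists of related genes, called genes were named, or genes from the 2 of highest mean. The members and lists were chosen with earlier results of these data known, and marker sums without their most abundant genes were added after the values were seen. Promoters are those of RefSeq for GRCm38.p6, GC content and overlaps come from GENCODE M21, and both were joined by gene symbol, with no coordinates of the authors' build.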

Additional observations from a re-analysis of the deposited data

How the results depend on the processing

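The count of members past the adjusted threshold in limma was 0 in all 6 comparisons and stayed 0 under the other pseudocounts, filters, scalings, array weights and fits on only the groups compared. For hepatectomy averaged over genotypes it was 1 with no intensity trend (Adamts12, 1.07, adjusted p = 0.0476). Leaving out each library in turn gave 0 to 6 members for hepatectomy averaged over genotypes, 0 to 1 for hepatectomy in Cre-positive livers, 0 to 1 for genotype after hepatectomy, and 0 to 0 for the other 3. All of these calls came without Cre-positive hepatectomy replicate 1, where the group holds a single library that is assumed to vary like the others, and 5408 of 16557 genes were then called. The cause was not tested. Timp2 averaged over genotypes ran from -0.43 to 0.057 on leaving out single libraries, positive without Cre-positive hepatectomy replicate 1. Timp1 in Cre-positive livers ran from -0.11, without Cre-positive sham replicate 2, to 1.37. The cause of these reversals was not tested. Of the named genes' values under an alternative, 566 kept their direction and side of the threshold, 9 gained a call and 40, all of the 4 collagens, lost one. Over all genes, 738 were called for averaged hepatectomy, against 405 with no filter, 422 with array weights and 140 to 5408 on leaving out single libraries. The 183 genes of the Cre-negative response became 63 with only the groups compared, 79 with quantile normalization, 103 with no filter, 813 with array weights and 0 to 1698 without single libraries. The 155 of the Cre-positive response became 7 with no filter, 99 with quantile normalization, 0 with array weights or only the groups compared, and 1 to 3507 without single libraries. The 3 genes of genotype after hepatectomy became 22 with no filter, 7 with no trend and 0 to 2217 without single libraries. Under median-of-ratios scaling 2 members lay above without overlap, Adamts12 and Adamts2 in place of Adamts12 and Mmp17, and 1 below, Timp3. No paired analysis was possible because the replicate numbers only follow accession order and pair no libraries. Depth is unknown, so its limit on members of low signal, such as Adamts12 and Mmp13, cannot be given.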
